A study of Mus musculus with 6 samples.

Results

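Replication-dependent histone genes were followed in RNA of microglia sorted from mouse optic nerve, the macrophages that reside in nervous tissue. They were taken by symbol, as the genes named for the clusters Hist1 to Hist4, with the row of highest mean kept for a repeated symbol and pseudogene symbols left out. That gave 69 genes among the 37447 rows of the deposited table, namely 6 for H1, 20 for H2A, 18 for H2B, 12 for H3 and 13 for H4. The 6 libraries come from C57BL/6 mice aged 3 months in which 1 copy of the neurofibromatosis type 1 gene Nf1 is floxed and the other is mutant. FM mice (n = 2, FM 1 labelled male and FM 2 labelled female) carry these alleles alone. FMC mice (n = 4, the first and the fourth labelled female, FMC 2 and FMC 3 male) carry in addition a Cre transgene driven by the GFAP promoter, which marks astroglia, a combination the study uses as a model of optic glioma. The labels call the libraries biological replicates and do not give the number of animals in each. All 6 libraries therefore share the mutant allele, and no group here has intact Nf1. The Cre transgene is aimed at other cells than those sorted, and whether it acted in the sorted cells was not tested.

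Histone proteins package DNA: H2A, H2B, H3 and H4 form the nucleosome core and H1 binds the linker DNA between cores. The genes studied here supply histones during S phase, when replicated DNA must be repackaged. Their messages are unusual in that most end in a short stem-loop and not in a poly(A) tail: the stem-loop binding protein Slbp holds the stem-loop, U7 small nuclear RNA guides the cut after it, and the message is degraded when DNA synthesis stops. Cells outside the cycle make histones mainly from replication-independent variant genes, whose messages are polyadenylated. Some replication-dependent genes also give polyadenylated messages in cells that have left the cycle.

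The stem-loop is shown because it defines these messages, and because its letters set 1 histone class apart from the others. Transcripts of the members were read from GENCODE vM21 (57 matched by Ensembl identifier and 12 by symbol) and searched on the sense strand for GGNNNNNNNNNNNNCC with 6 paired stem bases on each side of a loop of 4 bases. A stem-loop of this form was found in 46 of the 69 transcripts, in 8 different spellings. The stem is in capitals and the loop in lower case, 5′ to 3′, in the spellings held by more than 1 member:
H1, H2A, H2B and H3 (26 members): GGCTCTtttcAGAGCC
H1, H2B and H3 (6 members): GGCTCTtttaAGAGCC
H4 (7 members): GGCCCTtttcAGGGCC
H4 (2 members): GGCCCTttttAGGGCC
H4 (2 members): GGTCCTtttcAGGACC
All 12 H4 transcripts with a stem-loop had the GGCCCT or the GGTCCT stem, and none of the 34 stem-loops of the other classes did. Any of the 8 spellings occurred in 48 of 21877 protein-coding genes (0.219%), and 45 of those 48 were members. The spellings were read from the members, so the members' own matches were fixed in advance. The count shows only that few other protein-coding genes hold them. A stem-loop of the same form in any spelling was found in 5.79% of protein-coding transcripts. Of the 23 transcripts without a stem-loop, 14 had models of at most 420 bases, so the absence of these letters says only that they are not in the annotated model. The polyadenylation signal AATAAA lay in the last 50 bases of 11 member transcripts, against 40.5% of all protein-coding transcripts.

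Promoters are shown for the members with the highest level among the H4 and the H2B genes, and the window of the H2B gene overlaps that of an H2A gene. The windows are RefSeq's (GRCm38.p6), the 250 bases before the annotated start, with TATAAA and with CCAAT on either strand in capitals:
Hist1h4d, chr13:23581318-23581567, plus strand: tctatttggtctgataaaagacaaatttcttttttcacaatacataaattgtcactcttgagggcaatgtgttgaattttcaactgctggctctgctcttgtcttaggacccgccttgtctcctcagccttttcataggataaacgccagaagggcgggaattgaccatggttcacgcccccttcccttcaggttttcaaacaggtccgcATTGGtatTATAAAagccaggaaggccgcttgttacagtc
Hist1h2bg, chr13:23571150-23571399, plus strand: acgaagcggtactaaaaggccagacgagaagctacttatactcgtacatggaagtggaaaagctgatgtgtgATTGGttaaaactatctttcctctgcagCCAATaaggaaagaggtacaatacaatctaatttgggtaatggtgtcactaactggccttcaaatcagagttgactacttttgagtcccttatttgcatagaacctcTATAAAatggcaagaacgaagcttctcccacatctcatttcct
The 250 bases of the H2A gene Hist1h2ae, on the minus strand from 23571221 to 23571470, overlap the second window. Of the 69 members 60 matched a RefSeq promoter. CCAAT was present in 49 of the 60 windows (81.7%), against 33.8% of all 32851 promoters, and TATAAA in 29 of 60 (48.3%, against 12.4%). Several H2A and H2B windows cover much the same DNA from opposite strands, as those of Hist1h2bj and Hist1h2ag do. Such windows are counted separately and are not independent. All 6 H1, 17 H2A and 15 H2B windows matched held CCAAT, as did 8 of 10 H3 windows, but it was found in 3 of 12 H4 windows, that of Hist1h4d among them. TATAAA was spread more evenly, from 40% of the H3 to 66.7% of the H1 windows. These matches describe letters in a window and not bound sites.

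Microglial identity and library differences bear on what follows. All 10 microglial markers (among them Cx3cr1, P2ry12 and Tmem119) were at 1 FPKM or more in every library, FPKM being fragment counts corrected for gene length and sequencing depth, and they summed to between 2946 and 5390 FPKM. Read totals were not used here, so the depth behind each value is unknown, and precision is read from the spread between libraries. The FPKM of all genes summed to 417487 in FM 1, 606861 in FM 2, and 671374, 447925, 491810 and 641535 in FMC 1 to FMC 4. Nf1 itself measured 39.3 and 50.0 FPKM in the FM libraries, against 48.0, 58.1, 55.6 and 138 in the FMC libraries, which does not check a deletion aimed at other cells. Markers of other cells were present. The sum of 8 T cell markers was 48.3 and 47.5 FPKM in the FM libraries, against 32.1 to 144 in the FMC libraries, with the highest value in FMC 1. The sum of 5 erythroid markers was 139 and 102 FPKM in the FM libraries, against 19.5 to 29.2 in the FMC libraries. The sum of 6 oligodendrocyte markers was 8.89 and 7.81 FPKM in the FM libraries, against 13.3 to 21.5 in the FMC libraries, above both in all 4. The 6 B cell markers summed to between 14.1 and 112 FPKM and the 5 astrocyte markers to between 111 and 144 FPKM. Most of the astrocyte sum was the glutamate transporter Slc1a3, at 104 to 130 FPKM, and the other 4 markers, Gfap, Aqp4, Aldh1l1 and Gja1, were under 10 FPKM in every library. No marker of these lists was at 0 in all libraries, and the part of such cells in the values of the histone genes was not tested. Of 37 mitochondrial genes 32 were listed at 0 in all libraries, so a 0 in this table can be a failed estimate and is given as listed at 0.

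Histone messages were detected in all libraries, but the level was concentrated in few genes. Of the 69 genes 24 were at 1 FPKM or more in all 6 libraries, 39 in some, and 6 in none. Mean levels were at least 100 FPKM for 5 genes, from 10 to 100 FPKM for 13, from 1 to 10 FPKM for 35 and under 1 FPKM for 16. The 6 genes with the highest means (Hist1h4d, Hist1h2al, Hist1h2bg, Hist1h1c, Hist1h1e and Hist1h1d) made up between 68.0% and 75.2% of the summed histone FPKM of a library. As a share of the summed FPKM of all genes, the histone genes were 0.259% in FM 1, 0.353% in FM 2, and 0.214%, 0.220%, 0.213% and 0.264% in FMC 1 to FMC 4. In these amplified libraries the capture of RNA without a poly(A) tail is not described in the sources used here, so these shares are not read as abundance per cell. The order of the 69 genes by level was alike between libraries, with Spearman correlations from 0.605 to 0.818 over the 15 pairs of libraries, a description over genes that share sequence and library. For the 56 members that passed the filter described below, the range was 0.531 to 0.785, and for all genes that passed it 0.598 to 0.710.

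**Figure D1:**
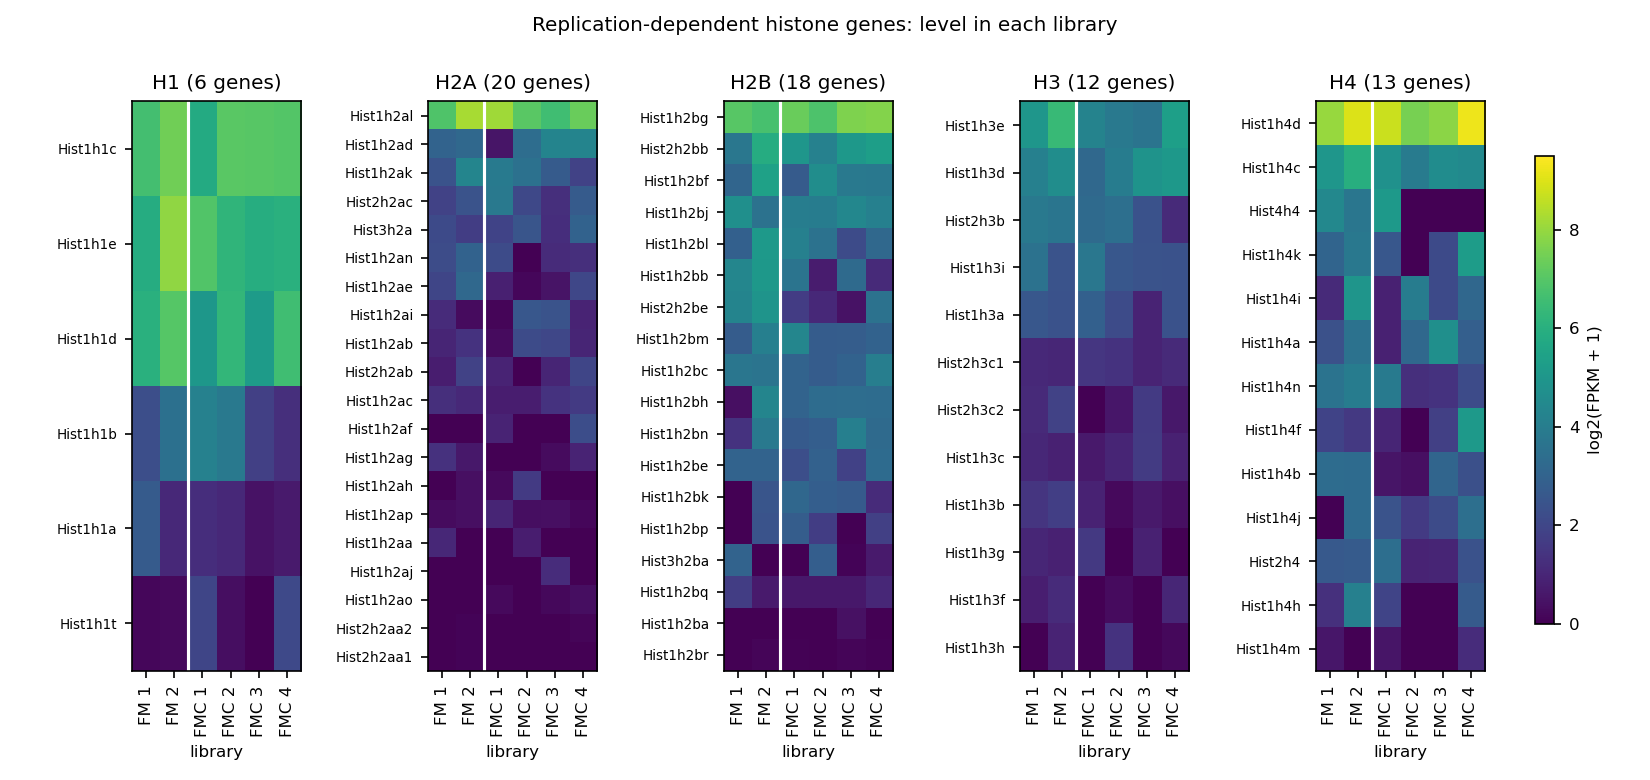
Level of each of the 69 histone genes (rows, by class and mean level) in each library (columns, FM left of the white line and FMC right of it), as colour on the log2(FPKM + 1) scale. Most of the signal of each class sits in 1 to 4 rows, and many low rows differ between libraries of the same group.

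The linker histones H1 held 3 of the 6 highest genes. Hist1h1c, Hist1h1d and Hist1h1e encode somatic H1 subtypes found in most cells. Hist1h1c was at 100.4 and 172 FPKM in the FM libraries, against 55.2, 133, 129 and 124 in the FMC libraries, given here and throughout in the order of their numbers. Hist1h1e was at 57.6 and 241 FPKM in the FM libraries, against 120, 72.6, 60.0 and 65.2 in the FMC libraries. Hist1h1d was at 64.7 and 128 FPKM in the FM libraries, against 31.7, 76.6, 36.1 and 96.4 in the FMC libraries. All 3 were highest in FM 2. The FM 1 value lay within the FMC range for Hist1h1c and Hist1h1d and just under it for Hist1h1e. Hist1h1b, a somatic subtype linked to dividing cells, was lower, at 3.81 and 10.5 FPKM in the FM libraries, against 1.41 to 17.2 in the FMC libraries. Hist1h1t, the testis subtype, was at 0.122 and 0.174 FPKM in the FM libraries, against 2.96, 0.288, 0 and 3.31 in the FMC libraries. Hist1h1b and Hist1h1t shared no stretch of 50 bases with another gene, and Hist1h1c and Hist1h1d shared 8.54% and 2.25% of theirs, against a median of 55.0% over all members.

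H2A was led by a gene whose identity is uncertain. Hist1h2al was at 118 and 306 FPKM in the FM libraries, against 284, 135, 94.1 and 162 in the FMC libraries, while the next H2A gene had a mean of 10.4 FPKM. It stands alone on chromosome 13 from 51298057 to 51298434 (mm9), far from the other histone genes of that chromosome, vM21 calls it a processed pseudogene, and 67.6% of its stretches of 50 bases occur in other genes, 44 of them. Next in order were Hist1h2ad, Hist1h2ak and Hist2h2ac. Hist1h2ad was at 7.04 and 8.28 FPKM in the FM libraries, against 0.463, 9.64, 18.7 and 18.6 in the FMC libraries. Hist1h2ak was at 4.44 and 18.9 FPKM in the FM libraries, against 13.6, 10.8, 5.70 and 2.63 in the FMC libraries. Hist2h2ac was at 2.64 and 4.44 FPKM in the FM libraries, against 13.2, 3.13, 1.42 and 5.55 in the FMC libraries. For these 3 genes the groups overlapped, with no common order of the libraries. Hist2h2aa1 and Hist2h2aa2 stayed under 0.1 FPKM in every library, and all of their stretches of 50 bases are shared with other genes; both are named after their values were seen.

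Among the H2B genes Hist1h2bg stood out by level, and it was among the steadier ones. It was at 131 and 107 FPKM in the FM libraries, against 158, 113, 204 and 212 in the FMC libraries, the narrowest range in FPKM among the 5 genes with means over 100 FPKM. Its residual SD in the fit across all genes was 0.376 on the log2(FPKM + 1) scale, against a median of 0.824 for the histone genes and 0.840 for all genes tested. Those medians include many low genes. The 10 microglial markers had a median residual SD of 0.413, and the H2B gene Hist1h2bj had 0.434. Hist2h2bb followed, at 12.7 and 58.5 FPKM in the FM libraries, against 31.2, 17.0, 32.4 and 38.9 in the FMC libraries. Its identifier belongs in vM21 to a lincRNA, Gm42743, and its span of 9281 bp overlaps another gene, so its values may not be those of an H2B message. Hist1h2bf was at 7.66 and 41.8 FPKM in the FM libraries, against 5.64, 24.1, 13.2 and 12.8 in the FMC libraries. Hist1h2bj was at 25.8 and 11.1 FPKM in the FM libraries, against 15.5, 15.0, 19.9 and 16.5 in the FMC libraries. In both of these genes the FMC values lay mostly between the FM values.

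H3 was the class with the lowest sum. Hist1h3e was at 30.9 and 82.7 FPKM in the FM libraries, against 18.1, 13.2, 11.5 and 39.6 in the FMC libraries, so that only FMC 4 rose above FM 1. Hist1h3d was at 16.4 and 24.3 FPKM in the FM libraries, against 8.32, 15.1, 28.8 and 32.1 in the FMC libraries, with groups that overlapped. Hist2h3b was at 13.18 and 12.01 FPKM in the FM libraries, against 8.76, 10.1, 4.19 and 1.18 in the FMC libraries, but every stretch of 50 bases of its model occurs in another gene and the table's unstranded position overlaps a second gene. Hist1h3i was at 10.9 and 4.41 FPKM in the FM libraries, against 12.7, 4.95, 4.40 and 4.23 in the FMC libraries. FM 1 and FMC 1 were its high libraries.

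H4 had the highest single gene of the family. Hist1h4d, on chromosome 13 from 23673467 to 23673859 (mm9, Ensembl ENSMUSG00000061482), was at 261 and 515 FPKM in the FM libraries, against 428, 188, 228 and 617 in the FMC libraries. Its mean of 373 FPKM placed it above 99.5% of genes. The 3 libraries labelled female had the 3 highest values and the 3 labelled male the 3 lowest, which also held for the sum of all H4 genes, for the sum of all histone genes and for the summed FPKM of all genes. Hist1h4c followed, at 30.9 and 60.7 FPKM in the FM libraries, against 27.1, 14.6, 23.8 and 21.7 in the FMC libraries, with no overlap between the groups. Hist4h4, the only gene of the Hist4 cluster (chromosome 6), was at 20.6 and 12.1 FPKM in the FM libraries, against 33.1 in FMC 1, and was listed at 0 in FMC 2, FMC 3 and FMC 4. Hist1h4k was at 7.31 and 12.9 FPKM in the FM libraries, against 4.96, 0, 3.37 and 36.9 in the FMC libraries. Both of these low H4 genes had a position of 312 bp in the table, shorter than many fragments after the 300 to 500 bp size selection that the labels' protocols give. The high genes Hist1h4d (393 bp) and Hist1h2al (378 bp) were likewise shorter than the longer fragments of that selection. The part of this in their levels was not tested.

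**Figure D2:**
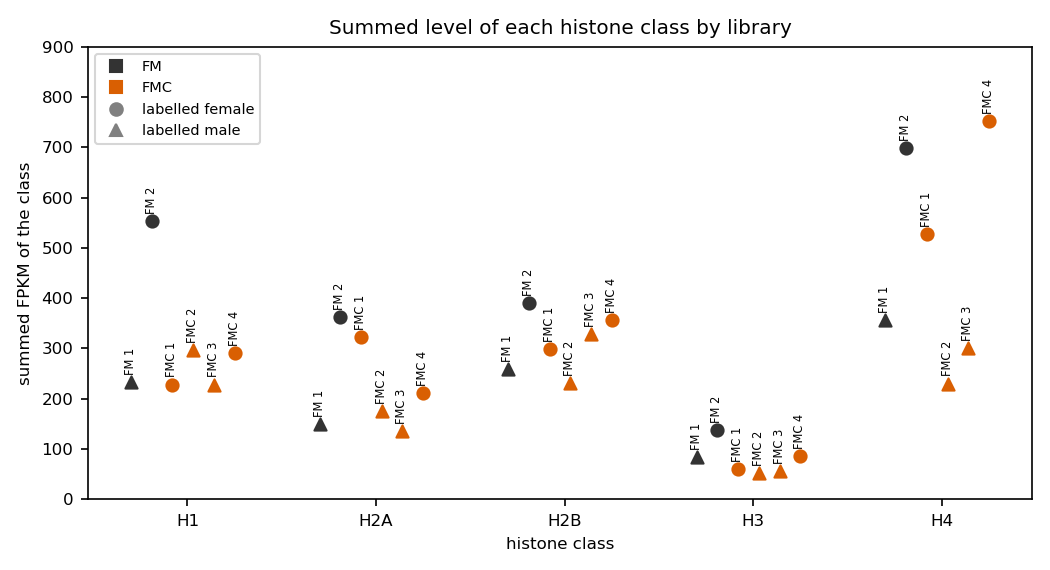
Summed FPKM of the members of each histone class in each library, 1 point per library, black for FM and orange for FMC, circles for libraries labelled female and triangles for those labelled male. FM 2 is highest in 4 of the 5 classes, and in H4 the highest point is FMC 4 at 752 FPKM.

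By cluster the level came mostly from the longest of the Hist1 stretches of chromosome 13. With gaps of over 200 kb taken as breaks, 31 members lay within 404 kb (23622919 to 24026720) and summed to 787 and 1511 FPKM in the FM libraries, against 701 to 1344 in the FMC libraries. A second Hist1 stretch, of 24 members within 328 kb (21807632 to 22135545), summed to 88.0 and 194 FPKM in the FM libraries, against 83.8 to 145 in the FMC libraries. Hist1h2al, which lies apart, was above that sum in every library, at 118 and 306 FPKM in FM and 94.1 to 284 in FMC. The median of the members' mean levels was 6.07 FPKM in the first stretch and 3.55 FPKM in the second. The 10 Hist2 genes of chromosome 3 summed to 55.0 and 116 FPKM in the FM libraries, against 34.5 to 67.9 in the FMC libraries. The Hist3 cluster of chromosome 11 has 2 members here. Hist3h2a was at 3.34 and 2.28 FPKM in the FM libraries, against 2.78, 4.62, 1.34 and 6.94 in the FMC libraries, and its position overlaps that of Trim17. Hist3h2ba was at 7.19 and 0 FPKM in the FM libraries, against 0, 6.09, 0.0786 and 0.626 in the FMC libraries.

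The comparison of FMC with FM asks whether histone messages of optic nerve microglia differ when Nf1 is also lost from GFAP-lineage cells. In bulk RNA fewer cells in cycle and less histone RNA per cell cannot be told apart. No histone gene passed the test: of 56 members with at least 1 FPKM in at least 2 libraries, 0 were called by limma on log2(FPKM + 1), with Benjamini-Hochberg adjustment over all 18208 genes tested. The smallest adjusted p was 0.689. Over all genes tested 5 were called, or 0.0275%. At an unadjusted p under 0.05 there were 2 members, both lower in FMC (3.57% of members, against 5.34% of all genes). A difference was below 0 for 40 of the 56 members (71.4%) and for 56.5% of all genes tested, with a median of -0.36 for the members and -0.12 for all genes (log2). This tilt rests on 1 library: without FM 2 the members' median was 0.04, beside 0.03 for all genes, with 26 of 53 members below 0, and without FM 1 it was -0.86, beside -0.25. Relative to all genes the members' median was lower by a similar amount under each scaling, at -0.24 on the deposited values, -0.25 with median ratio scaling and -0.22 with quantile normalization.

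All 4 FMC libraries lay below both FM libraries for 7 of the 56 members (12.5%), against 8.22% of all genes tested, and all 4 lay above both for 0 members, against 4.34%. The 7 are Hist2h2be, Hist1h2bb, Hist1h3b, Hist1h4c, Hist1h4b, Hist1h2an and Hist2h3b, of which Hist1h4b and Hist1h2an are named after their values were seen. The 12.5% is near the background, and the count moves with the libraries used: leaving out FM 1 gave 23 (41.1%, beside 26.7% of all genes), FM 2 gave 11 (19.6%, beside 19.4%), FMC 1 gave 11 (19.6%, beside 11.2%) and FMC 4 gave 14 (25%, beside 13.9%). FM 2 held the highest value for 23 of the 69 members (33.3%), and for 23.1% of all genes tested.

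**Figure D3:**
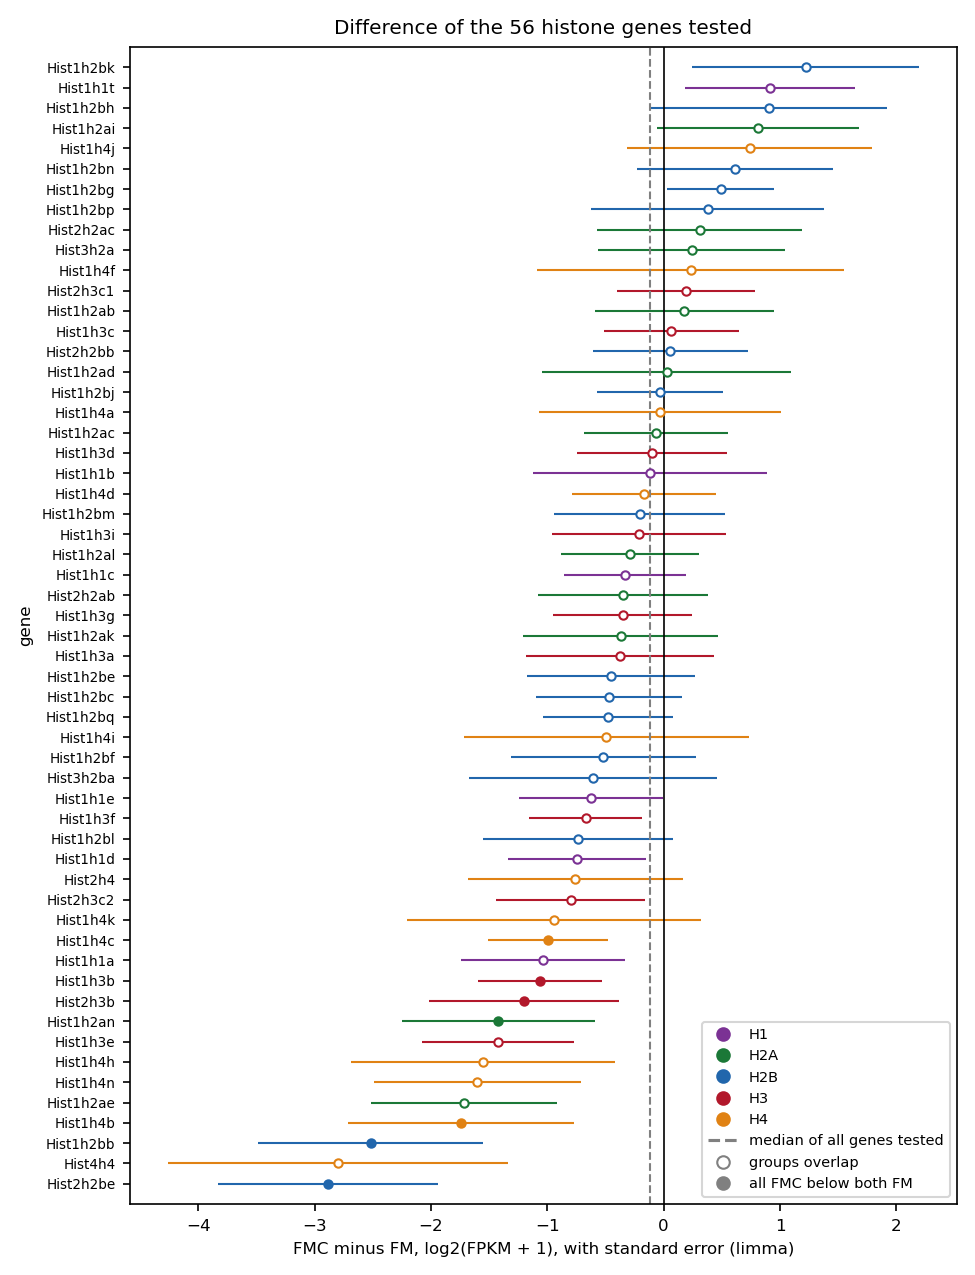
Difference between FMC and FM for each of the 56 histone genes tested, on the log2(FPKM + 1) scale with the standard error from limma, coloured by class; filled points mark genes with all FMC libraries below both FM libraries. The points run from -2.89 to 1.22, and the dashed line is the median of all genes tested at -0.12.

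The smallest p belonged to an H2B gene outside the main cluster. Hist2h2be, on chromosome 3 from 96025044 to 96027661 (mm9), was at 18.3 and 29.3 FPKM in the FM libraries, against 2.21, 1.15, 0.380 and 11.0 in the FMC libraries. All 4 FMC libraries lay under the lower FM library, and the gap between FMC 4 and FM 1 was the smallest. The FM mean was 23.8 ± 7.76 FPKM (SD, n = 2), and the FMC mean was 3.67 ± 4.91 FPKM (SD, n = 4). On the log2(FPKM + 1) scale FMC minus FM came to -2.89 ± 0.95 (SE), short of the threshold over all genes (limma, adjusted p = 0.689). With each library left out in turn the difference ran from -3.51 to -2.47. None of its stretches of 50 bases occurs in another gene, and its transcript model ends with AATAAA in the last 50 bases and holds none of the stem-loop spellings. The summed erythroid markers were also lower in all FMC libraries. They were at 139 and 102 FPKM in the FM libraries, against 26.2, 22.9, 29.2 and 19.5 in the FMC libraries. Their part in the Hist2h2be difference was not tested.

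Hist1h2bb, an H2B gene of the longest Hist1 stretch, was at 19.5 and 32.5 FPKM in the FM libraries, against 11.4, 0.655, 8.81 and 1.17 in the FMC libraries. The groups did not overlap, and its difference was -2.52 ± 0.97 (SE, log2, limma adjusted p = 0.797). Hist1h3b was low throughout, at 1.78 and 2.35 FPKM in the FM libraries, against 0.883, 0.175, 0.557 and 0.324 in the FMC libraries. Hist1h2ae was at 2.98 and 8.18 FPKM in the FM libraries, against 0.776, 0.134, 0.421 and 3.02 in the FMC libraries, where FMC 4 just exceeded FM 1. Hist1h4n was at 11.3 and 14.7 FPKM in the FM libraries, against 14.2, 1.46, 1.64 and 3.45 in the FMC libraries, with FMC 1 among the FM values. Hist4h4, Hist1h3e and Hist1h4c completed the 8 members with the smallest p in this direction. Their differences were -2.80 ± 1.46, -1.42 ± 0.65 and -0.99 ± 0.51 (SE, log2), with limma adjusted p of 0.993, 0.964 and 0.993.

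In the other direction the 8 members with the smallest p were Hist1h1t, Hist1h2bk, Hist1h2bg, Hist1h2ai, Hist1h2bh, Hist1h2bn, Hist1h4j and Hist1h2bp, and their groups all overlapped. Hist1h2bg had a difference of 0.49 ± 0.46 (SE, log2, limma adjusted p = 0.993), with 3 FMC libraries above both FM libraries and FMC 2 between them. Hist1h2bk was at 0 and 4.74 FPKM in the FM libraries, against 7.93, 6.23, 5.68 and 1.25 in the FMC libraries. Hist1h2bh was at 0.326 and 19.2 FPKM in the FM libraries, against 7.07, 9.37, 9.43 and 9.15 in the FMC libraries. For Hist1h2bh, Hist1h2bn, Hist1h4j and Hist1h2bp, FM 1 was at or below and FM 2 within or above the FMC range, so their mean differences compare FMC with a pair of unlike libraries. Hist1h2ai was at 1.23 and 0.198 FPKM in the FM libraries, against 0.0897, 5.01, 4.45 and 0.904 in the FMC libraries, and 90.1% of its stretches of 50 bases occur in other genes.

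No class had a called member. Below 0 were 5 of 6 H1, 6 of 11 H2A, 10 of 16 H2B, 9 of 11 H3 and 10 of 12 H4 members tested, with medians of -0.48, -0.07, -0.33, -0.38 and -0.85 (log2), beside the -0.12 of all genes, of which 56.5% lay below 0. The H2A share, 6 of 11, was not above that of all genes. The summed level of H3 was 83.3 and 138 FPKM in the FM libraries, against 59.7, 51.9, 56.3 and 85.4 in the FMC libraries, a difference of -0.79 in mean log2 sum. Only FMC 4 reached the FM range. Without FM 1 this difference was -1.15, without FM 2 it was -0.42, and without Hist1h3e it was -0.33. H1 summed to 232 and 553 FPKM in the FM libraries, against 228, 297, 228 and 290 in the FMC libraries. FM 2 alone stood above the rest in H1. H2A summed to 150 and 362 FPKM in the FM libraries, against 323, 175, 135 and 212 in the FMC libraries. Most of the H2A sum was Hist1h2al, and the difference in mean log2 sum was -0.21 with it and 0.02 without it. H2B summed to 258 and 391 FPKM in the FM libraries, against 298, 231, 329 and 356 in the FMC libraries, a difference of -0.08 with all members and of -0.53 without Hist1h2bg. H4 summed to 356 and 699 FPKM in the FM libraries, against 528, 230, 300.4 and 752 in the FMC libraries. In H2A, H2B and H4 the FMC values spread over most of the FM interval and beyond it, and without FM 2 the differences of the H1, H2A, H2B and H4 sums were above 0, from 0.16 to 0.42. All histone genes together summed to 1079 and 2142 FPKM in the FM libraries, against 1437, 984, 1049 and 1696 in the FMC libraries, or 1611 ± 751 FPKM (SD, n = 2) and 1292 ± 336 FPKM (SD, n = 4).

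All 4 FMC libraries detected fewer histone genes than both FM libraries, FMC 4 by 1 gene. At 1 FPKM or more there were 50 and 50 of 69 in FM and 40, 40, 41 and 49 in FMC. FMC 4 was apart from the other FMC libraries. The share of all genes at that level was 41.8% and 41.9% in FM and 36.9%, 41.5%, 36.0% and 39.7% in FMC, so FMC 2 detected nearly as large a share of all genes as FM but 58.0% of the histone genes against 72.5%. The H3 genes were detected in 10 and 9 of 12 cases in FM and in 7, 7, 6 and 7 in FMC. For H2B the numbers were 13 and 14 of 18 in FM and 14, 14, 12 and 15 in FMC. Counted as any value above 0, the difference in the share of members between the groups shrank from -10.9 to -2.17 percentage points.

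Titles of 4 libraries carry dates that lie 1 day apart in pairs, with no statement of what the dates mean. Between FMC 2 and FM 1, both labelled male, 33 of 56 members were lower in FMC 2, with a median of -0.21 beside -0.05 for all genes (log2). Between FMC 3, labelled male, and FM 2, labelled female, 43 of 56 were lower in FMC 3, with a median of -1.14 beside -0.32, and here sex and genotype cannot be told apart.

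H2A and H2B genes often lie head to head, so that 1 short stretch of DNA serves both promoters, and equal amounts of both proteins enter each nucleosome. Of the members 13 pairs had an H2A and an H2B gene within 1000 bp, taken by distance alone and not by strand. Hist2h2be is in 2 of them, with Hist2h2ac and with Hist2h2ab. Hist2h2ac lies between Hist2h2ab and Hist2h2be, so the pair with Hist2h2ab is counted although its genes are not adjacent. Levels within pairs were unequal, and the H2B gene had the higher mean in 9 of 13. It was higher in all 6 libraries in 4 pairs and the H2A gene was higher in all 6 libraries in 1. The widest gap was between Hist1h2ae, with a mean of 2.59 FPKM, and Hist1h2bg, with a mean of 154 FPKM, 59.6 times higher across 175 bp. It is their overlapping promoter windows that are printed above. Hist1h2bc was 7.77 times higher in mean than Hist1h2ac. Hist1h2bj, 264 bp from Hist1h2ag, had a mean of 17.3 FPKM, and Hist1h2ag had a mean of 0.540 FPKM and was listed at 0 in FMC 1 and FMC 2. Of these, Hist1h2ag, Hist1h2bc and Hist1h2ac, and above Hist2h2ab, were named after their values were seen. Hist2h2be lies 240 bp from Hist2h2ac. In FM it was the higher of the pair in both libraries, and in FMC it was the higher in FMC 4 alone.

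**Figure D4:**
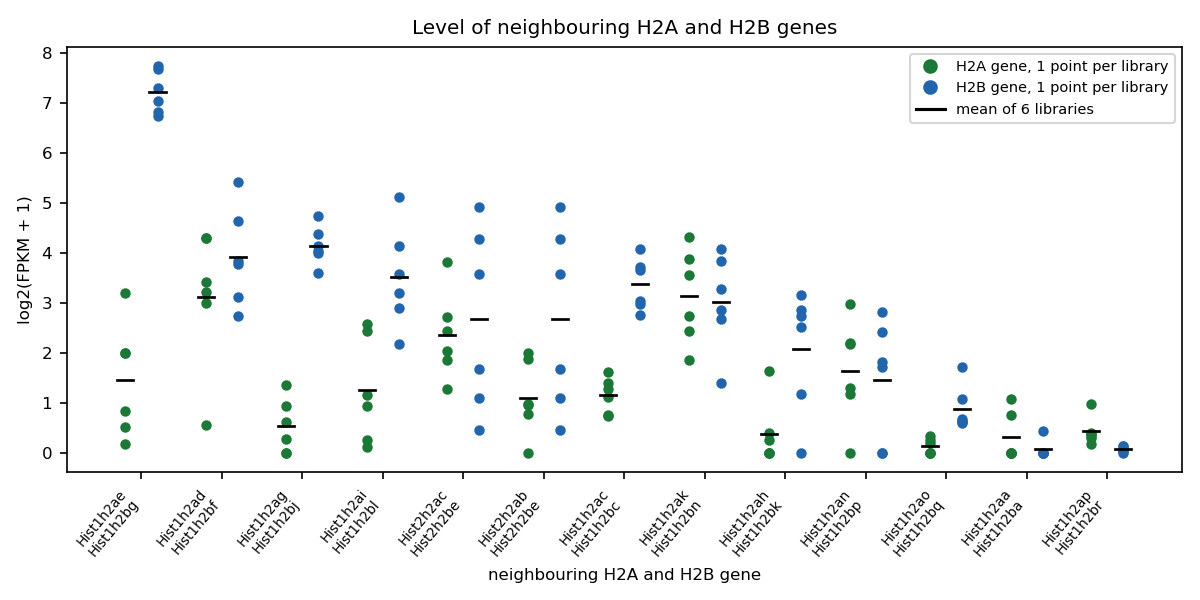
Level of the H2A gene (green) and the H2B gene (blue) of the 13 pairs within 1000 bp, 1 point per library on the log2(FPKM + 1) scale, with a bar at the mean of the 6 log2 values. Hist1h2bg lies above its neighbour Hist1h2ae by more than 3 units in every library, whereas most other pairs overlap or lie low.

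Histone genes of a class are near copies, which limits how far reads can be given to 1 gene. The median member shared 55.0% of its stretches of 50 bases with at least 1 other gene. The 36 members that shared at least 50% had a median mean level of 1.86 FPKM, and the 33 that shared less had 8.13 FPKM. The counting of reads with several matches is not described in the sources used here, and its part in this difference was not tested. Hist1h4d (10.2% shared), Hist1h1c and Hist1h1d are high genes with mostly unique sequence. Hist1h2al and Hist1h3e (73.4% shared) are high genes with mostly shared sequence. Level also went with the length annotated past the stem-loop in vM21, but not with other features of length or end. The 23 members whose vM21 model extends over 100 bases past the stem-loop had a median mean level of 9.09 FPKM. The 23 with 100 bases or fewer had 4.1 FPKM. With AATAAA in the last 50 bases it was 4.48 FPKM (11 members), and without it 4.75 FPKM (58 members). By deposited span the order was the reverse, at 7.04 FPKM for at most 500 bp and 2.56 FPKM for over 500 bp. The vM21 models can differ from those behind the deposited FPKM. For Hist1h4d the vM21 model has 770 bases after the stem-loop, but the deposited position spans 393 bp in all. The median difference between FMC and FM was -0.34 (log2) over the 40 tested members with a stem-loop and -0.42 over the 16 without.

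**Figure D5:**
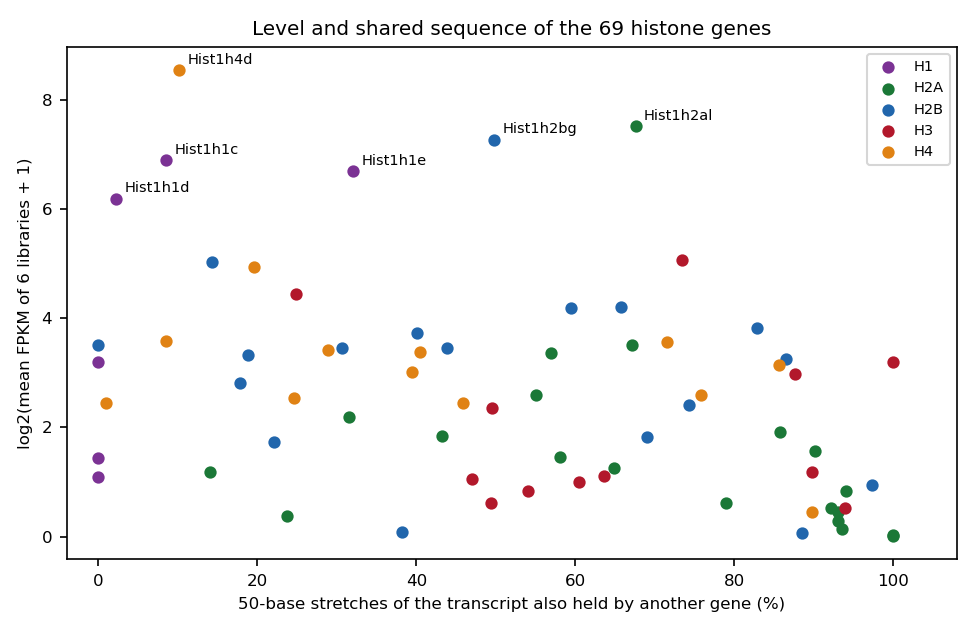
Share of the 50-base stretches of each member's transcript model that also occur in another gene (%, horizontal) against its mean level over the 6 libraries as log2(mean FPKM + 1) (vertical), coloured by class. The 6 named genes at the top run from 2.25% to 67.6% shared, and the genes at 90% or more are nearly all low.

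The machinery around these genes was measured alongside. The list for processing, binding and decay of histone messages had 25 of 26 genes in the table and 24 tested, of which 0 were called, 10 lay above 0 and 14 below, with a median of -0.15 (log2). Slbp was at 17.6 and 14.6 FPKM in the FM libraries, against 10.8, 5.81, 19.7 and 18.7 in the FMC libraries, so its groups overlapped; it is named as the stem-loop binding protein, after its values were seen. Lsm10, a subunit of the U7 particle, was at 39.2 and 55.0 FPKM in the FM libraries, against 26.8, 38.7, 18.6 and 16.5 in the FMC libraries, below both FM libraries in all 4 (-0.94 ± 0.52, SE, limma adjusted p = 0.993). Zcchc11, a terminal uridylyl transferase, was at 28.7 and 22.9 FPKM in the FM libraries, against 80.8, 29.3, 76.1 and 62.9 in the FMC libraries, above both in all 4 (1.15 ± 0.53, SE, limma adjusted p = 0.967). Neither passed the test.

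Replication-independent histone variants summed to less than the replication-dependent genes in every library, but their list holds no H2B or H4 gene. The 2 sums therefore cover unlike classes. Within H3 the order was the reverse. The variant H3f3b alone, at 156 and 291 FPKM in FM and 139 to 240 in FMC, exceeded the H3 class sum in every library. It is named after its values were seen. The 16 variant genes measured summed to 316 and 597 FPKM in the FM libraries, against 341 to 425 in the FMC libraries. Of 12 tested 0 were called, 5 lay above 0 and 7 below, with a median of -0.25 (log2). H2afb1 and H2afv had the smallest p among them, with differences of -0.82 ± 0.74 and -0.71 ± 0.92 (SE, log2). For S phase and DNA replication 0 of 29 genes tested were called, 14 lay above 0 and 15 below, and the median was -0.03. Pola1, a subunit of the polymerase that primes DNA synthesis, was at 10.6 and 8.72 FPKM in the FM libraries, against 18.4, 19.5, 12.9 and 25.2 in the FMC libraries (0.88 ± 0.53, SE, limma adjusted p = 0.993). Gins4, part of the replicative helicase, was at 8.46 and 12.5 FPKM in the FM libraries, against 2.93 to 12.3 in the FMC libraries.

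For mitosis and proliferation 0 of 12 genes tested were called, 5 lay above 0 and 7 below, and the median was -0.50. Top2a, the topoisomerase of dividing cells, was at 41.8 and 34.4 FPKM in the FM libraries, against 26.3, 10.1, 18.5 and 16.3 in the FMC libraries, below both FM libraries in all 4 (-1.12 ± 0.53, SE, limma adjusted p = 0.974). Aurkb, a mitotic kinase, was at 10.7 and 13.1 FPKM in the FM libraries, against 6.40, 0.944, 5.58 and 13.1 in the FMC libraries, with FMC 4 at the level of FM 2. For histone chaperones 0 of 18 genes tested were called, 11 lay above 0 and 7 below, and the median was 0.16. Ssrp1, a subunit of the FACT complex, was at 52.0 and 35.8 FPKM in the FM libraries, against 18.9, 25.8, 11.6 and 19.1 in the FMC libraries (-1.20 ± 0.51, SE, limma adjusted p = 0.895). Hira, which deposits variant H3, was at 11.4 and 22.3 FPKM in the FM libraries, against 7.99, 7.71, 7.72 and 9.90 in the FMC libraries (-0.87 ± 0.58, SE, limma adjusted p = 0.993). Both lay below the FM libraries in all 4 FMC libraries without passing the test.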

How the data were processed

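Microglia were enriched on Percoll, sorted by flow cytometry and extracted with TRIzol, and cDNA was made with the Ovation RNA-Seq method, sheared, size-selected and sequenced on an Illumina HiSeq, per the labels' protocols. Build mm9 and the tools Cufflinks 2.0.2, TopHat2 2.0.4, Bowtie2 2.0.0 and CASAVA 1.8.2 stand in the submitters' processing notes without roles; strand setting and treatment of multiply mapped reads are not given in the sources used here. The deposited table gives FPKM by the authors, with positions read as mm9 and printed from 1. From these, log2(FPKM + 1) was tested with limma 3.58.1 (R 4.3.3, intensity trend, two-sided) over the 18208 genes that reach 1 FPKM in 2 or more of the 6 libraries (Benjamini-Hochberg, threshold 0.05); differences on this scale understate changes of low genes. Genes without a value in every library (426) were left out. The script was tested on simulated data. Members and lists were chosen with earlier results of these data known. Named members are the 4 highest by mean per class, the 8 with the smallest p per direction, and Hist3 and Hist4 genes; in other lists the 2 with the smallest p. Alternatives covered the pseudocount, filter, scaling, trend, sex, blocks and each library. Sequence features come from GENCODE vM21 and RefSeq (GRCm38.p6), another build than the table's, matched by name only.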

Additional observations from a re-analysis of the deposited data

Results flagged for a closer look

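In the FMC group 9 of 42 values tested had 1 library far from the other 3, by Dixon's criterion (gap over range above 0.829). Chance flags about 1 in 20 such groups, and values of neighbouring or near-identical genes are not independent. FMC 1 was the library apart for Hist1h1c (55.2 FPKM, others 124 to 133), Hist1h2bh (7.07 FPKM, others 9.15 to 9.43), Hist4h4 (33.1 FPKM, others listed at 0), Hist1h4n (14.2 FPKM, others 1.46 to 3.45) and Hist1h3i (12.7 FPKM, others 4.23 to 4.95). FMC 4 was apart for Hist1h4k (36.9 FPKM, others 0 to 4.96), for the number of histone genes at 1 FPKM or more (49, others 40 to 41) and for the share of summed FPKM in histone genes (0.264%, others 0.213% to 0.220%). FMC 2 was apart for Hist3h2ba (6.09 FPKM, others 0 to 0.626).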

How the results depend on the processing

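Of the 15 alternatives, 12 to 15 gave a value for each of the 34 named histone genes; none was called under those, and 14 kept the sign of their difference in each of those. Over all genes the number called was 1 with a pseudocount of 0.1, 0 without a filter, 0 with a mean of at least 5 FPKM, 10 without the trend, 0 with sex as a covariate, 3 with the date block and 0 to 8 with a library left out. The deviations of same-numbered libraries from their group means had correlations of r = 0.0314 and -0.0569. With 2 FM libraries the FM deviations mirror each other, so this check cannot decide whether the numbers pair libraries. With the replicate block 0 genes were called, and the members' median was -0.44. Hist1h2al (0.0389), Hist2h2bb (-0.24), Hist1h2ad (-1.13), Hist1h2ak (0.34), Hist1h1b (1.13) and Hist1h3i (0.17) changed sign with that block. Other sign changes (log2) came with median ratio scaling and quantile normalization for Hist1h3d (0.0449 and 0.00192), Hist1h2bj (0.112 and 0.0562) and Hist1h1b (0.0378 and 0.131), with the pseudocount of 0.1 for Hist1h2ad (-0.22), and with the date block for Hist2h2bb (-0.22), Hist1h3d (0.0584), Hist1h2bj (0.0228), Hist2h2ac (-0.50), Hist3h2a (-0.0566), Hist1h2bp (-0.35) and Hist1h1t (-0.0164).

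With a library left out, differences ran from -0.66 to 0.32 for Hist1h4d, -0.97 to 0.39 for Hist1h2al, -0.72 to 0.0503 for Hist1h1c, -1.65 to 0.40 for Hist1h1e, -1.01 to 1.12 for Hist2h2bb, -0.37 to 0.26 for Hist1h3d, -1.67 to 0.64 for Hist1h2bf, -0.61 to 0.55 for Hist1h2bj, -0.36 to 0.89 for Hist1h2ad, -1.31 to 0.57 for Hist1h2ak, -1.06 to 2.87 for Hist1h2bh, -0.61 to 1.83 for Hist1h2bn, -0.74 to 0.51 for Hist1h1b, -0.78 to 0.36 for Hist1h3i, -0.14 to 0.71 for Hist2h2ac, -0.93 to 2.41 for Hist1h4j, -0.0401 to 2.48 for Hist1h2bk, -0.0366 to 0.55 for Hist3h2a and -0.83 to 1.59 for Hist1h2bp. The summed level differed by -0.77 to 0.22 over all members, -1.10 to 0.16 for H1, -0.85 to 0.42 for H2A, -0.38 to 0.21 for H2B and -1.15 to -0.42 for H3, the ends being the fits without FM 1 and FM 2. Without its highest member the H2B sum differed by -0.53 and the H3 sum by -0.33. The count of members with all FMC below FM libraries, left-out libraries being added after the data were seen, ran from 7 to 23. Detection above 0 FPKM moved the group difference to -2.17 percentage points. Causes were not tested. Where 1 FM library remains, its spread is taken to equal that of FMC.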
